A study of Mus musculus with 76 samples.

Results

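RNA was compared between 2 stages of neural cultures that had been derived from mouse embryonic stem cells (mESC) of the inbred strain C57BL/6J (B6), namely differentiating neural progenitors and a later stage of axonal regrowth, called the axon stage here. Of the 70 libraries of the series (76 sequenced samples), 7 make up this comparison: the 4 axon-stage libraries labelled ctrl/ctrl, which received neither the DYRK1A inhibitor ID-8 nor axotomy, and the 3 progenitor libraries labelled ctrl that carry numbers of the same library block. They came from 9 sequenced samples, because 2 of the libraries had been run again and the runs were summed. Axon-stage libraries are numbered 1 to 4 and progenitor libraries 4 to 6, in accession order. Set beside them were 3 control libraries a stage of the strain WSB/EiJ (WSB) from the same block, with the same labels for treatment, and the 3 B6 control progenitor libraries of the other block. Each library holds the RNA of a whole culture with no named sort, and the labels do not say how many stem cell lines, clones or separate differentiations they come from. P-values therefore measure the spread between these libraries, which may be technical, and a lower transcript in bulk RNA can mean fewer cells of a type or less RNA per cell, which cannot be told apart. Stage also means time in culture, and the labels give no days.

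Neural progenitors are dividing cells held in that state by SOX factors and by Notch signalling between neighbours. A progenitor that differentiates switches on proneural transcription factors for a short time, leaves the cell cycle, and builds first an axon and later the synapses, receptors and channels that make a neuron excitable. The same progenitors turn to making astrocytes and ependymal cells late in development. The RNA-binding proteins LIN28A and LIN28B, which block maturation of the let-7 microRNAs, mark the early side of this sequence.

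The shallowest of the 7 libraries held 22.9 and the deepest 77.4, each times 1e6 expected counts, and 19261 to 21205 genes had a count. Mitochondrial genes held 2.00% to 2.58% of the counts in progenitors and 3.16% to 4.11% at the axon stage, and the part of this difference in the results was not tested. The first principal component of log2 levels of the 1000 most variable genes, with 88.8% of the variance, separated the stages. The second, with 6.91%, separated axon-stage libraries 1 and 2 from 3 and 4. Correlation across genes was 0.992 between axon-stage libraries 3 and 4, against 0.951 to 0.979 for the other pairs of that stage, 0.963 to 0.983 among progenitors, and 0.750 to 0.839 between stages. Axon-stage libraries 3 and 4 still differed by more than repeat runs of 1 library did (chi-square per degree of freedom 8.56, against 2.302 and 2.397), and were kept as 2 libraries. Progenitor library 6 had the highest summed level of the pluripotency list and the lowest of the pan-neuronal list, and library 4 the reverse. Levels below are counts per 1e6 (CPM) of scaled library totals, in library order with progenitors first, and differences are log2 of axon stage over progenitors ± standard error.

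The cultures carried the markers of their labels together with those of other cells. Sox1 and Pax6, which mark neural progenitors, read 21.7, 18.6 and 34.1 CPM and 33.2, 37.7 and 57.5 CPM in the progenitor libraries. Pou5f1, the pluripotency factor OCT4, read 95.3, 138 and 230.2 there. At the axon stage Pou5f1 read 0.634, 0.0368, 0.615 and 0.655 CPM. Sox1 read 32.6, 14.01, 23.9 and 30.5 there and so did not separate the stages. The neuronal nuclear marker Rbfox3 read 37.6, 27.6 and 16.2 CPM in progenitors and 92.6, 118.1, 53.5 and 55.05 at the axon stage. Tubb3, the neuronal tubulin, read 1032, 573 and 349.8 against 1262, 1582, 844 and 862 CPM and was not called (adjusted p = 0.106), with progenitor library 4 above axon-stage libraries 3 and 4. The progenitor cultures thus held neuronal and pluripotent transcripts. Glial and mesenchymal transcripts of the axon-stage cultures are given below.

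Of 16779 genes tested, 10471 (62.4%) were called at an adjusted p under 0.05 (edgeR quasi-likelihood test, Benjamini-Hochberg), 4980 (29.7%) higher at the axon stage and 5491 (32.7%) lower. The median difference over all genes was -0.05. Changes of at least 2-fold numbered 3663 upward and 3184 downward, and changes of at least 8-fold 1150 and 654. With so large a background, a list is described by its counts beside 29.7% and 32.7%, and by its median beside -0.05. How many of all genes had stages that did not overlap was not counted. Many genes named below were chosen by p or by size of difference in these same values, which favours stages that lie apart. Where groups are said not to overlap, this describes the genes named and is no further support.

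**Figure D1:**
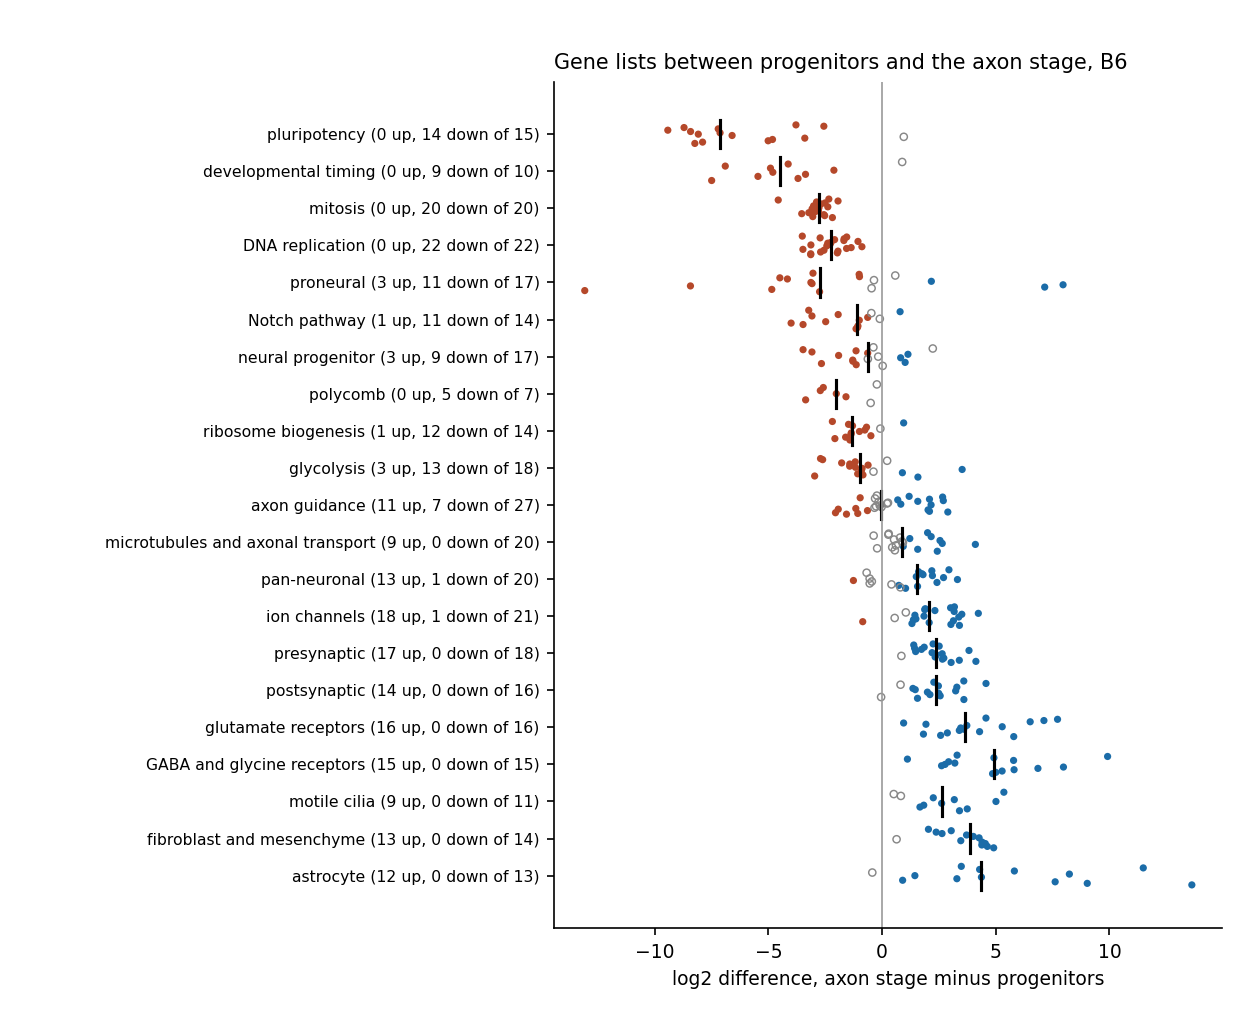
Log2 difference between the axon stage (4 libraries) and progenitors (3 libraries) for the tested members of 21 gene lists in B6, 1 point per gene; filled points were called (blue higher, red lower), open points were not, and black bars are medians. Pluripotency genes lie near -7.13 at the median and the cell division lists wholly below 0, while receptor lists lie wholly above it.

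The pluripotency list fell almost as a whole, with 14 of 15 members lower, none higher, and a median of -7.13. Nanog, which with OCT4 holds stem cells undifferentiated, read 61.95, 112 and 210.4 CPM in progenitors and 0.500, 0.294, 0.749 and 0.566 at the axon stage, a fall of 7.90 ± 0.52 on the log2 scale. Fgf4, a growth factor made by stem cells, read 12.2, 19.3 and 49.8 against 0.0834, 0, 0.107 and 0.0298 CPM. In both genes the groups lay far apart, and the progenitor libraries rose in the order 4, 5, 6. Utf1, a chromatin factor of stem cells, read 31.2, 46.4 and 74.6 CPM and then 0 in 3 of 4 axon-stage libraries, with 12 counts in all. Klf4 was the exception, at 8.94, 18.4 and 29.1 CPM in progenitors and 11.1, 22.9, 54.3 and 58.1 at the axon stage (0.95 ± 0.62, adjusted p = 0.211, not called), with axon-stage libraries 3 and 4 highest. KLF4 is also expressed outside stem cells. Summed over the list, levels were 648 to 1735 CPM in progenitors and 31.4 to 91.4 at the axon stage.

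Genes of early developmental timing fell as well (9 of 10 lower, none higher, median -4.47). Lin28a read 135, 159 and 206 CPM in progenitors and 0.634, 0.110, 1.52 and 1.37 at the axon stage, and Lin28b 43.6, 30.8 and 43.1 against 3.64, 2.46, 2.94 and 2.98. Trim71, an RNA-binding ubiquitin ligase of early embryos, read 105.3, 160.4 and 252 against 1.62, 0.882, 1.31 and 1.91 CPM. Igf2bp1, which binds and stabilises messenger RNAs, read 371, 473 and 699 against 7.12, 4.23, 16.7 and 18.6, and Hmga2, a chromatin protein of fetal progenitors, 77.3, 114.9 and 165 against 1.25, 0.809, 6.13 and 7.69. The stages did not overlap in any of these 5 genes, and differences ran from -3.70 ± 0.20 for Lin28b to -7.50 ± 0.61 for Lin28a (adjusted p = 2.5e-05 and 8.06e-05, edgeR). Nr6a1, an orphan nuclear receptor of early embryos, was among the 15 genes with the smallest p downward: it read 81.1, 95.7 and 141 CPM and then 5.65, 5.40, 6.45 and 6.70. Dlk1, a Notch-like growth regulator, was not called (0.88 ± 0.40, adjusted p = 0.0891). Hmga1 is uncertain, since 64.2% of its sequence also occurs in other genes.

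These transcripts are shown with their let-7 seed matches because let-7 and LIN28 repress each other. MicroRNAs were not measured here. The seed (bases 2 to 8, in capitals) is shared by 11 mature mouse microRNAs in RefSeq (GRCm38.p6), such as these 3.
let-7a-5p: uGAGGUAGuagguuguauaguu
let-7c-5p: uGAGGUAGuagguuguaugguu
miR-98-5p: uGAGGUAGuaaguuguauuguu

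The match to that seed is CTACCTC, searched on the transcript strand in the longest annotated 3′ untranslated region of each gene (GENCODE M21, GRCm38). Of 15120 tested genes with such a region, 10.5% held at least 1 match, against 9 of 10 genes of the timing list. That list holds genes known for regulation by let-7, so its share follows in part from their choice. Nr6a1 held 8, Igf2bp1, Hmga2, Lin28b and Trim71 held 4 each, Lin28a held 2, and Igf2bp2, Igf2bp3 and Hmga1 held 1, while Dlk1 held none. The first match of Lin28a, Lin28b, Trim71 and Hmga2 is printed as 30 bases of the transcript strand with the match in capitals; all 4 genes lie on the minus strand of GRCm38.
Lin28a, chr4:134005182-134005211: gcacagcctgttgaaCTACCTCatttttgc
Lin28b, chr10:45381015-45381044: acccgggcgggaagtCTACCTCatgcaagc
Trim71, chr9:114512465-114512494: aacattgcctaagtcCTACCTCagcttaaa
Hmga2, chr10:120364217-120364246: gccgacattcaatttCTACCTCagcatcag

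The share of genes called lower rose with the number of matches. It was 33.1% of 13531 genes with none, 36.3% of 1395 with 1, 43.1% of 167 with 2 and 63.0% of 27 with 3 or more, where 17 were lower and 4 higher. Median differences in these classes were -0.03, -0.11, -0.33 and -0.80. Without the timing list, whose genes are known for this regulation, 12 of 22 genes with 3 or more matches were lower (54.5%), 4 were higher, and the median was -0.53. Among them were Fignl2 (a relative of the microtubule-severing enzyme fidgetin, 3 matches), which read 134, 107.4 and 96.9 CPM and then 3.10, 2.02, 3.24 and 3.57, and Hic2 (a transcriptional repressor, 4 matches), at 125, 134 and 165 against 13.4, 10.99, 14.4 and 15.6. Both belonged to the 15 genes with the smallest p downward. The 4 higher genes were Mcf2l (7 matches, 1.401) and, with 3 matches each, Slc22a23 (1.865), Trim67 (1.573) and D1Ertd622e (0.985). Nudt12, also with 7 matches, was not called (-0.265). Regions with more matches were also longer, with median lengths of 1063, 2176, 3518 and 4466 bases across the 4 classes, and the part of length in this pattern was not tested.

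**Figure D2:**
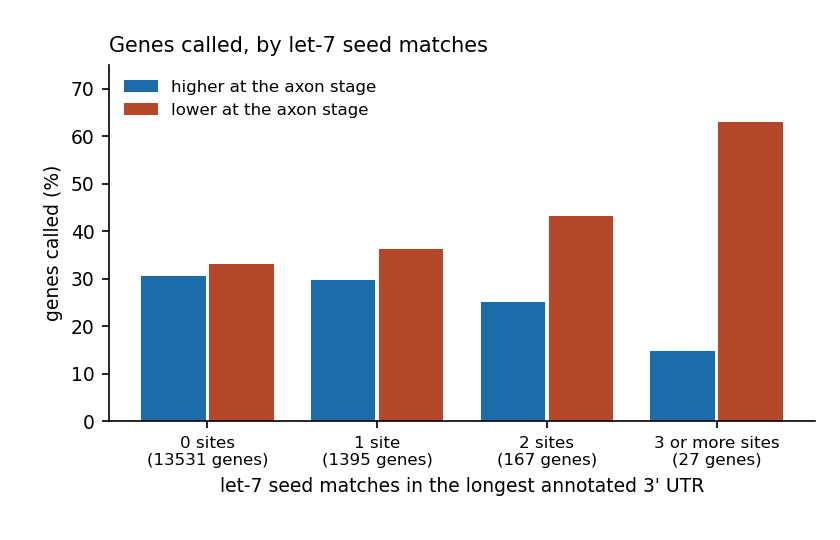
Percent of tested genes called higher (blue) or lower (red) at the axon stage, grouped by the number of let-7 seed matches in the longest annotated 3′ untranslated region. Genes called lower make up 33.1% of genes with no match and 63.0% of the 27 genes with 3 or more.

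Every member of the cell division lists fell, 22 of 22 for DNA replication (median -2.26) and 20 of 20 for mitosis (median -2.79), against 32.7% of all genes. Mcm2, a subunit of the replicative helicase, read 182, 224 and 327 CPM in progenitors and 21.98, 15.2, 38.1 and 35.7 at the axon stage. Mki67, which encodes the proliferation marker Ki-67, read 254, 364 and 600.5 against 52.96, 33.4, 83.9 and 66.4 CPM. Mybl2, a cell cycle transcription factor, had the largest fall of the mitosis list, from 107.8, 179.8 and 306 to 6.07, 1.95, 12.9 and 12.3 CPM (-4.57 ± 0.65, adjusted p = 0.000674), but over 20% of its sequence also occurs in other genes. Axon-stage libraries 3 and 4 were above 1 and 2 in all 3 genes, and library 6 was the highest progenitor. Summed mitosis levels were 2282 to 4603 CPM in progenitors and 216 to 650.0 at the axon stage, so that dividing-cell transcripts were lower but present.

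Promoters of mitosis genes are known for 2 short motifs near the start of transcription, a CHR element (core TTTGAA or TTCGAA) and CCAAT. Both were searched on either strand in the 250 bases before the start, in RefSeq promoters of GRCm38.p6, where 16 of 20 mitosis genes and 18 of 22 replication genes had an entry. The CHR core was in 7 of 16 mitosis promoters (43.8%), 3 of 21 replication promoters (14.3%) and 17.1% of all 32851 promoters. CCAAT was in 14 of 16 (87.5%), 15 of 21 (71.4%) and 33.8%. Both motifs within the last 100 bases occurred in 4 mitosis promoters (25.0%), against 1.14% of all promoters. These 4 are shown as the 120 bases before the start, on the gene's strand, with both motifs in capitals on either strand, so that CCAAT can read ATTGG and the CHR core TTCAAA.
Cdc20, chr4:118437344-118437463, minus strand: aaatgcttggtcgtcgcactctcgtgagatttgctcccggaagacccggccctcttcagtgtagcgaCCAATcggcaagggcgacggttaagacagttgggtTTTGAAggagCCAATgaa
Cdk1, chr10:69352913-69353032, minus strand: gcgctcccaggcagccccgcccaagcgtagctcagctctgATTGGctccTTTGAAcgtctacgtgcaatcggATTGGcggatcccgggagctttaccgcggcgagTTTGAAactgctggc
Kif11, chr19:37376262-37376381, plus strand: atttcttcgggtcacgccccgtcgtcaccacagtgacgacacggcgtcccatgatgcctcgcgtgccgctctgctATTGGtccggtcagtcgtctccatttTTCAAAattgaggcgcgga
Top2a, chr11:99024190-99024309, minus strand: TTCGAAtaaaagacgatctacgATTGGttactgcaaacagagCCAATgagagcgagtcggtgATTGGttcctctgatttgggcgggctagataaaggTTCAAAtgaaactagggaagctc

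The 4 genes behind these promoters fell, as all 20 members of the mitosis list did, so their fall says nothing about the motifs. Cdc20, an activator of the anaphase-promoting complex, read 106, 127 and 166 CPM in progenitors and 23.9, 14.7, 36.5 and 29.8 at the axon stage. Cdk1, the mitotic kinase, read 83.8, 104 and 138 against 16.3, 9.45, 36.4 and 33.4, Kif11, a spindle motor, 128, 150.1 and 245 against 17.1, 10.7, 43.1 and 37.7, and Top2a, the topoisomerase that untangles chromosomes, 507, 611 and 1076 against 54.7, 41.4, 129 and 121. Their falls ran from 2.19 ± 0.45 for Cdk1 to 3.08 ± 0.47 for Top2a on the log2 scale (adjusted p = 0.00362 and 0.000893, edgeR). In each of the 4, axon-stage library 2 was lowest and the groups did not overlap.

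Regulators of cyclin-dependent kinases went both ways, with 6 higher and 6 lower of 16 and a median of -0.02. Over all genes 29.7% were higher and 32.7% lower, with a median of -0.05, so the list as a whole did not stand out. Cdkn2a and Cdkn2b, neighbouring genes for inhibitors of CDK4 and CDK6 that are known from growth arrest in culture, rose. Cdkn2a read 14.48, 18.1 and 18.5 CPM and then 52.1, 46.5, 46.7 and 44.9, and Cdkn2b 5.89, 8.10 and 3.88 against 31.1, 35.96, 31.9 and 30.2. Cdkn1a, the p53 target p21, rose from 102.1, 97.97 and 70.1 to 163, 152, 192 and 201 CPM. Cdkn1c, the inhibitor p57 of newly born neurons, fell from 398, 333 and 273 to 18.1, 23.02, 42.96 and 35.1 CPM, and Cdkn1b (p27) fell by 0.89 ± 0.14. Ccnd2 (cyclin D2) rose (1.15 ± 0.39, adjusted p = 0.0319), a call lost when any of 5 libraries was left out, and Ccnd1 was not called (-0.11 ± 0.27), while Cdk4 fell by 1.65 ± 0.15. Of the p53 target list, Cdkn1a included, 2 of 10 were higher and 1 lower, with Phlda3 at 0.94 ± 0.15 and Zmat3 at -0.65 ± 0.13. Without axon-stage libraries 1 and 2, 4 p53 targets were higher, and without 3 and 4, 4 were lower.

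Progenitor genes did not fall together. Of the neural progenitor list 9 of 17 were lower and 3 higher (median -0.63). Sox2, a factor of stem and progenitor cells, read 139, 162 and 245 CPM in progenitors and 91.2, 49.3, 95.5 and 94.0 at the axon stage, and Msi1, an RNA-binding protein of progenitors, 239, 218 and 211 against 73.8, 59.9, 53.1 and 49.4. The 3 that rose are also known from glia: Sox9 (35.5, 44.2 and 31.4 against 92.3, 72.7, 72.4 and 61.3 CPM), Fabp7, a fatty acid binding protein of radial glia (305, 253 and 133 against 422, 473, 588 and 548), and the filament gene Vim (0.82 ± 0.26, groups overlapping, a call lost when any of 5 libraries was left out). Sox1 (0.03 ± 0.32), Nes (-0.63 ± 0.31) and Prom1 (-0.17 ± 0.38) were not called.

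Notch pathway genes mostly fell (11 of 14 lower, 1 higher, median -1.11). Of the ligands, Dll1 read 114, 113 and 90.2 CPM in progenitors and 11.5, 11.4, 7.68 and 7.42 at the axon stage, and Dll3 fell by 4.00 ± 0.24 on the log2 scale, while Jag2 was not called (-0.10 ± 0.23). The receptors Notch1, Notch2 and Notch3 fell by 1.15 ± 0.18, 1.08 ± 0.16 and 1.06 ± 0.13. Among targets, Nrarp, a feedback inhibitor, fell by 3.23 ± 0.28, Hes5 by 3.08 ± 0.77 and Hes1 by 0.63 ± 0.17 (not called without progenitor library 5, adjusted p = 0.0622). Hes5 read 18.1, 23.2 and 34.5 CPM and then 2.42, 7.94, 0.803 and 0.923, with axon-stage library 2 the highest of its group. Lfng, a glycosyltransferase that modifies Notch receptors, rose (0.79 ± 0.21, adjusted p = 0.0131); without progenitor library 5 it was not called (adjusted p = 0.058), and against progenitors of the other library block it read -0.33. Mfng, a second such enzyme and no list member, was among the 15 genes with the smallest p downward, at 12.97, 15.7 and 12.1 against 0.717, 0.478, 0.696 and 0.685 CPM.

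Most proneural factors fell (11 lower and 3 higher of 17, median -2.75). Neurog1, which commits progenitors to the neuronal fate, read 22.3, 31.3 and 23.3 CPM in progenitors and 0 counts in all 4 axon-stage libraries, at least 1352.0-fold lower with a floor of 3 counts over the group. Neurod4 read 29.05, 41.4 and 22.6 against 0, 0.147, 0.134 and 0.119 CPM, with 13 counts at the axon stage. Nhlh2, of newly born neurons, read 259, 161 and 154 against 12.6, 11.4, 3.69 and 6.14. None of these 3 overlapped between stages. Sox11, a factor of immature neurons, fell from 328, 249.8 and 167 to 32.7, 33.5, 26.9 and 27.6 CPM.

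The 3 proneural members that rose are known from maturing neurons. Neurod2 read 0.0521, 0.129 and 0.0924 CPM in progenitors, which is 12 counts in all, and 17.1, 25.6, 4.47 and 4.47 at the axon stage. Neurod6 read 0.104, 0 and 0, which is 4 counts in all, and 9.12, 12.4, 5.80 and 6.55, and Myt1l, a repressor of non-neuronal genes, 63.05, 49.1 and 16.7 against 229, 271, 128 and 142. Axon-stage libraries 1 and 2 were the highest in each, and the groups did not overlap. The differences were 7.15 ± 0.96, 7.96 ± 0.88 and 2.17 ± 0.48.

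**Figure D3:**
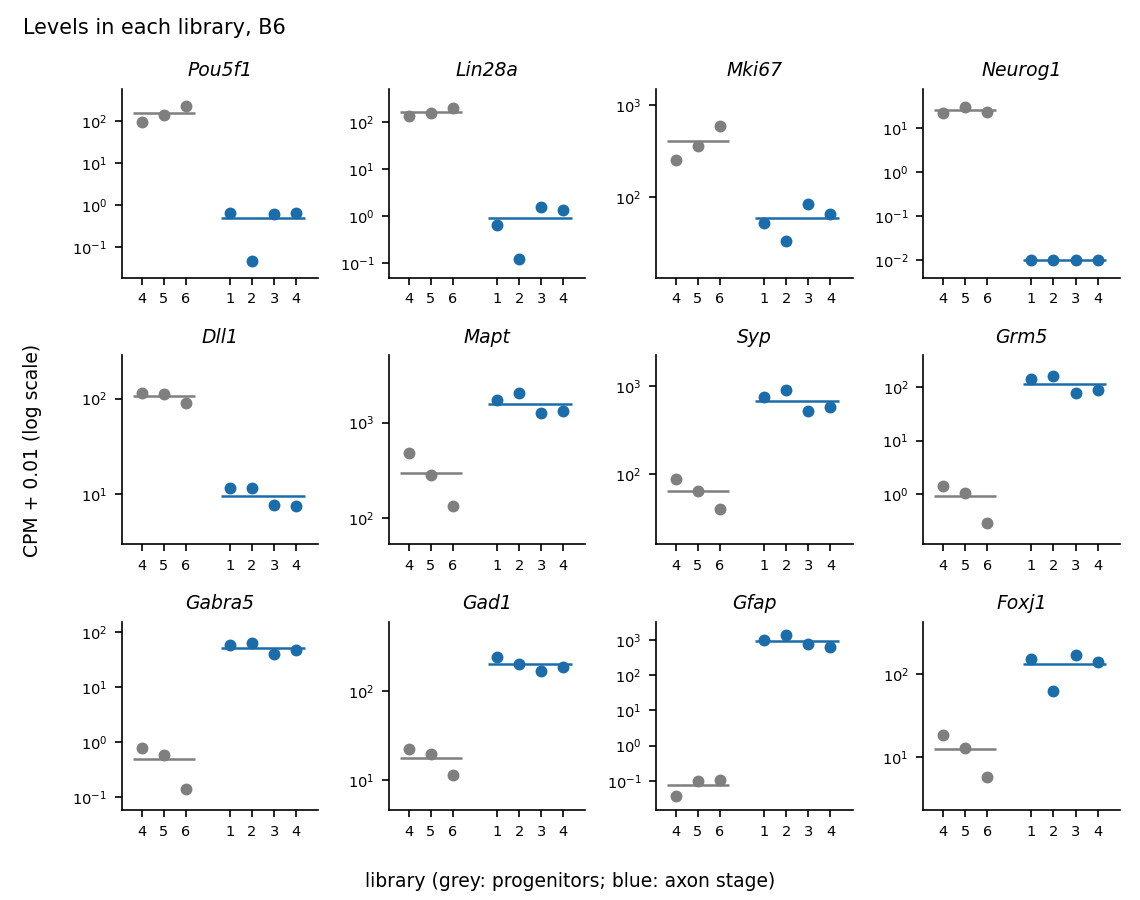
CPM of 12 genes in each B6 library on a log axis, with 0.01 added; grey points are progenitor libraries 4 to 6, blue points axon-stage libraries 1 to 4, and lines are group means. Neurog1 lies at the floor in all 4 axon-stage libraries, and Gfap rises from under 0.1 CPM to 634 or more.

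Most polycomb genes and progenitor subunits of the BAF complex fell. Of the polycomb list 5 of 7 members were lower and none higher (median -2.01). Ezh2, its methyltransferase, read 175, 165 and 223 CPM and then 11.9, 8.97, 25.4 and 26.6, and Cbx2, a reader of that mark and one of the 15 smallest p downward, 58.9, 63.2 and 64.0 against 7.80, 7.32, 7.49 and 7.12. The DNA methyltransferase Dnmt3b, used by early embryos, fell from 41.8, 46.3 and 61.9 to 1.75, 1.10, 2.65 and 2.32 CPM, while Dnmt3a, its counterpart in neurons, was not called (0.36 ± 0.19). All 5 of 5 progenitor subunits of the BAF remodelling complex fell, Actl6a from 103, 112 and 115.2 to 20.7, 13.6, 26.6 and 24.3 CPM. Of their 5 neuronal counterparts only Actl6b was called (1.24 ± 0.47, adjusted p = 0.0494), which was lost when any of 5 libraries was left out, and against progenitors of the other library block 4 of 5 were. In the linker histone list 6 genes fell and Hist1h1c rose (1.48 ± 0.23), and H1f0, the variant known from non-dividing cells, fell by 1.54 ± 0.22. Of the 6, Hist1h1d was not called without progenitor library 5 (adjusted p = 0.053, edgeR). Hist1h1e is uncertain, since 28.5% of its sequence also occurs in other genes.

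Rest, which silences neuronal genes outside neurons, read 76.96, 122 and 195 CPM in progenitors and 32.2, 21.03, 38.1 and 34.8 at the axon stage. Rcor2, its corepressor, had one of the smallest p downward: 185, 166 and 155 CPM and then 10.8, 12.6, 10.8 and 11.4, a fall of 3.89 ± 0.12 (adjusted p = 8.17e-06). Ptbp1, a splicing repressor of non-neuronal cells, fell from 293, 377 and 514 to 121, 70.1, 146 and 139.8 CPM, and its neuronal paralogue Ptbp2 fell by 0.83 ± 0.15. Rbfox1, a splicing factor of mature neurons, rose from 66.5, 40.5 and 20.02 to 158, 184, 102.3 and 126 CPM. Over the list of neuronal splicing regulators 2 rose and 7 fell of 14.

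Genes of growth metabolism fell. Glycolysis had 13 of 18 members lower and 3 higher (median -0.99). Pkm, pyruvate kinase, read 2001, 1886 and 2509 CPM and then 649, 622, 617 and 598, and Slc2a3, a glucose transporter, 387, 706 and 1302 against 135, 121, 110.0 and 122. The 3 that rose were Aldoc, the brain aldolase (17.2, 19.6 and 35.8 against 199.99, 394, 265 and 254 CPM), Hk1 (1.58 ± 0.21) and Pfkm (0.89 ± 0.14), while Hk2 fell by 2.97 ± 0.42. Ribosome biogenesis had 12 of 14 lower, Mycn from 77.5, 79.5 and 100.02 to 23.4, 21.8, 15.1 and 14.9 CPM, and only Myc higher (0.95 ± 0.19). Among highly expressed genes, the elongation factor Eef2 and the chaperone Hsp90ab1 fell by 1.08 ± 0.17 and 1.04 ± 0.16. Gapdh, Eno1, Pgk1, Npm1 and Eef1a1 also fell, but over 20% of the sequence of each occurs in other genes, so their values are uncertain. Cholesterol synthesis went up (9 higher, 1 lower of 16, median 0.68), with Mvd at 1.16 ± 0.20. None of the 9 was called against a 2-fold change.

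Few patterning genes rose. Of 39 Hox genes 29 were tested, 9 were lower and none higher (median -0.73). Over all genes 32.7% were lower and 29.7% higher, so Hox genes fell about as often as other genes but did not rise. Of the forebrain and midbrain list 5 of 13 were lower and 2 higher (median -0.56). Hoxb1, of the early hindbrain, read 3.23, 3.96 and 2.38 CPM and then 1 count in all 4 axon-stage libraries, while Hoxb5 read 417, 289 and 69.8 against 311, 119.2, 229 and 241 CPM (not called). Dbx1 and Pax7, progenitor factors of the intermediate and dorsal cord, fell from 47.1, 79.7 and 79.4 to 0.133, 0.147, 0.107 and 0.0298 and from 26.96, 20.7 and 32.04 to 0.117, 0, 0.0535 and 0 CPM. Over the hindbrain and spinal list 10 of 16 were lower, and Nkx6-2 (2.35 ± 0.34) and Msx1 (2.01 ± 0.66) higher, the latter not called when any of 5 libraries was left out. Without axon-stage libraries 1 and 2, 4 Hox genes were called higher. Crabp2, which carries retinoic acid, fell from 212, 153 and 176 to 1.82, 3.05, 3.80 and 2.92 CPM.

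Pan-neuronal genes mostly rose. Of that list 13 of 20 were higher and 1 lower (median 1.53). Mapt, the axonal protein tau, read 482, 278 and 132 CPM in progenitors and 1709, 2043, 1267 and 1325 at the axon stage, and Map2, its dendritic relative, 1009.9, 655 and 395 against 1466, 1789, 1212 and 1151, where the call was lost without progenitor library 5 (adjusted p = 0.0799). Nefh, the late neurofilament subunit, read 9.04, 5.601 and 3.88 against 63.4, 63.6, 56.02 and 62.1, whereas Nefm, an early one, fell from 899, 583 and 366 to 362, 224, 201 and 240.4 (-1.26 ± 0.32, adjusted p = 0.0101). Dcx, a microtubule protein of young neurons, was not called at 1478, 934 and 618 against 704, 792, 478 and 547 CPM (-0.68 ± 0.31). Progenitor library 4 was the highest of its group in all 5 genes, and its summed pan-neuronal level of 9633 CPM lay above axon-stage libraries 3 and 4 (8877 and 9399). Without progenitor library 6, 5 members were called lower.

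Synaptic genes rose nearly throughout. Presynaptic genes had 17 of 18 higher (median 2.36) and postsynaptic genes 14 of 16 (median 2.38), with none lower. Syp, the vesicle protein synaptophysin, read 88.7, 64.5 and 40.4 CPM in progenitors and 743, 888, 516 and 570.1 at the axon stage. Syn2, which tethers vesicles, read 19.1, 15.6 and 7.05 against 232, 284, 213 and 239.6, and Cplx1, a clamp on fast release, 17.3, 10.1 and 4.56 against 155, 146, 143 and 155. Camk2b, a kinase of the postsynaptic side, read 45.3, 30.5 and 19.9 against 348, 425, 203 and 225 CPM, and Dlg2, a scaffold that anchors receptors, 13.4, 7.28 and 5.10 against 129.8, 135, 66.8 and 83.3. No groups overlapped in these 5 genes, and progenitor levels fell from library 4 to 6 in each. Those not called were Syt4 (0.85 ± 0.39), Homer1 (-0.04 ± 0.16) and Nlgn2 (0.81 ± 0.34). Summed presynaptic levels were 643 to 1712 and 3888 to 6776 CPM.

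All receptor genes tested rose, 16 of 16 for glutamate (median 3.66) and 15 of 15 for GABA and glycine (median 4.92), against 29.7% of all genes. Among AMPA subunits Gria1 read 7.24, 4.14 and 1.95 CPM in progenitors and 291, 254, 222 and 208 at the axon stage, a rise of 5.79 ± 0.48, while Gria3 rose by 1.82 ± 0.15. The obligate NMDA subunit Grin1 read 11.3, 8.27 and 5.93 against 192, 242, 110.1 and 116.9. Grin2b, the subunit of young synapses, was at 302, 361, 133 and 137 CPM at the axon stage, and Grin2a, which joins in mature ones, at 20.1, 18.6, 16.9 and 15.6. The largest rises were those of the metabotropic receptors Grm7, from 0.547, 0.560 and 0.132 to 101, 102.4, 48.2 and 57.1 CPM, and Grm5, from 1.38, 1.03 and 0.277 to 142, 159, 77.4 and 90.1. The smallest rise was that of the kainate subunit Grik5 (0.95 ± 0.28), which was not called without progenitor library 6 (adjusted p = 0.0521).

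Among GABA-A receptor subunits, Gabra5 read 0.782, 0.560 and 0.132 CPM in progenitors and 57.9, 63.2, 40.1 and 47.4 at the axon stage, and Gabra4 0.573, 0.991 and 0.370 against 28.1, 31.2, 37.9 and 37.95. Gabrb1 held 10 counts in all progenitor libraries and read 25.9, 24.9, 16.3 and 14.3 CPM later. Of the glycine receptor, Glra2, the fetal subunit, read 4.48, 2.54 and 0.951 against 73.8, 72.8, 78.5 and 91.2 CPM. Glra3 had 0 counts in progenitors and 3.34, 3.71, 1.77 and 2.65 CPM at the axon stage, at least 131.3-fold higher with the same floor. Glra1, the adult subunit, had the smallest rise (1.11 ± 0.41, groups overlapping), not called when any of 4 libraries was left out.

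Ion channel genes had 18 of 21 higher and 1 lower (median 2.07). Scn2a, a sodium channel of axons, read 46.9, 29.5 and 15.3 CPM and then 299.6, 338, 166 and 192, and Kcnd2, a potassium channel of dendrites, 8.10, 4.52 and 1.53 against 113, 104.8, 61.8 and 71.7. The lower one was Scn9a, known from sensory neurons, at 12.4, 10.4 and 11.6 against 8.62, 4.93, 5.97 and 5.84 CPM.

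Transmitter genes showed more than 1 kind of neuron. For GABA neurons 9 of 14 rose and none fell (median 1.13). Gad1, which makes GABA, read 22.2, 19.6 and 11.4 CPM and then 245, 205, 169 and 187, and Slc32a1, which loads it into vesicles, 26.8, 21.8 and 16.8 against 104.5, 117.3, 121 and 130.3. These were even across the axon-stage libraries. Slc17a6, the glutamate transporter VGLUT2 of hindbrain and thalamus, read 42.3, 19.9 and 17.8 against 333, 391, 113 and 127, with libraries 1 and 2 above 3 and 4. Slc17a7 (VGLUT1, of cortex) fell from 1.48, 1.77 and 2.80 to 0.550, 0.294, 0.455 and 0.536. Of the peptides, Penk read 1.12, 1.08 and 0.713 against 45.6, 49.9, 42.3 and 43.5 CPM and Tac1 0.417, 0.302 and 0 against 121, 50.1, 57.97 and 57.3, both named by the rule for small p or large change. Sst rose by 0.84 ± 0.22 (adjusted p = 0.0116), and against progenitors of the other library block it read -0.57.

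Genes of serotonin neurons differed within the axon stage. Tph2, the enzyme of serotonin synthesis, read 0.156, 0.0431 and 0.132 CPM in progenitors and 10.3, 9.04, 2.73 and 2.09 at the axon stage. Slc6a4, the serotonin transporter, read 0.313, 0.0862 and 0.238 against 21.4, 17.1, 1.61 and 1.34, and Fev, a serotonin neuron factor, 0.208, 0.560 and 0.225 against 4.49, 4.89, 0.375 and 0.447. Libraries 1 and 2 were the higher ones in all 3, and for Fev libraries 3 and 4 overlapped the progenitors and the call was lost when any of 5 libraries was left out. Th, of dopamine neurons, fell from 16.5, 11.2 and 11.9 to 5.22, 3.20, 2.17 and 1.996 CPM. In the monoamine list 4 of 13 were higher and 2 lower, beside 29.7% and 32.7% of all genes. Only 2 were higher without axon-stage libraries 1 and 2.

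Axon genes split by role. Adhesion molecules of axons had 11 of 14 higher and 1 lower (median 2.13), guidance genes 11 higher and 7 lower of 27 (median -0.03). Cntn1, a contactin of later axons, read 23.1, 18.7 and 9.96 CPM and then 657, 844, 371 and 419, whereas Cntn2, of early commissural axons, fell from 214, 186 and 140.2 to 80.3, 113, 45.2 and 47.7. Robo3, the receptor that lets axons cross the midline, was outside the lists and had one of the smallest p downward, at 223, 146 and 118.8 against 0.667, 0.846, 0.883 and 0.864 CPM (-7.65 ± 0.28). Its relative Robo2 rose from 68.0, 52.4 and 36.7 to 234, 272, 166 and 178, and Robo1 fell by 0.64 ± 0.23, a call that was lost when any of 5 libraries was left out. Among netrin receptors Dcc fell from 94.4, 72.6 and 59.5 to 25.6, 32.02, 23.4 and 21.001 CPM while the 4 UNC5 receptors in the list went both ways: Unc5a and Unc5b fell by 1.07 ± 0.21 and 2.05 ± 0.31, and Unc5c and Unc5d rose by 2.89 ± 0.50 and 2.08 ± 0.36. The ligand Ntn1 was not called (-0.03 ± 0.35). Slit1 and Slit2 fell by 1.93 ± 0.31 and 1.16 ± 0.25. Semaphorins and their partners rose where called, Sema6d by 2.08 ± 0.15 and Plxna4 by 2.66 ± 0.58, except the receptor Plxna2 (-0.96 ± 0.26).

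Motor and cytoskeletal genes had 9 of 20 higher and none lower (median 0.89); against progenitors of the other library block 16 were higher. Dync1i1, the neuronal dynein intermediate chain, read 2.45, 2.59 and 1.98 CPM and then 38.1, 41.9, 38.5 and 41.3, with little spread in either group. Kif1a, the motor of synaptic vesicle precursors, read 379.8, 269 and 153 against 1555, 1964, 1165 and 1069, while Kif5b, the ubiquitous kinesin, was not called (-0.22 ± 0.13). Of genes known from axon regeneration 7 of 16 rose and 5 fell. Gap43, of growth cones, read 391, 189 and 91.8 against 842, 974, 628 and 675 CPM, Jun 64.9, 72.9 and 58.7 against 111, 109.7, 149 and 141, and Bdnf, a neurotrophin, 2.47, 2.59 and 1.41 against 37.3, 21.4, 19.7 and 20.9. Vgf, an activity-induced peptide precursor, rose from 6.90, 8.88 and 7.63 to 409, 320.4, 185 and 215. Arg1, Gadd45a, Socs3, Sox11 and Hspb1 (the last uncertain through shared sequence) fell, the first from 12.2, 14.52 and 9.68 to 1.28, 1.73, 0.883 and 1.01 CPM, and Atf3, the injury factor, was not called at 3.97, 4.71, 17.8 and 16.1 CPM. Immediate early genes, which follow neuronal activity among other stimuli, had 7 of 12 higher and 1 lower, with Egr1 at 13.4, 16.2 and 9.65 against 84.8, 51.2, 89.2 and 80.7 CPM and Fos at 7.29, 9.18 and 10.96 against 35.3, 22.9, 43.01 and 39.7. Ier2 was the lower one (-1.50 ± 0.19).

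Astrocyte genes rose (12 of 13 higher, none lower, median 4.37). Gfap, the astrocyte filament, had 10 counts in all progenitor libraries and read 988, 1356, 795 and 634 CPM at the axon stage (13.63 ± 0.53, adjusted p = 8.17e-06). Aqp4, the water channel of astrocyte endfeet, read 1.28, 0.646 and 0.343 against 354, 581, 308 and 277, and Sparcl1, a secreted synapse-promoting protein, 11.6, 13.9 and 12.7 against 651, 842, 729.9 and 657. Agt had 0 counts in progenitors and 6.29, 4.49, 13.03 and 10.2 CPM later, at least 389.5-fold higher. Slc1a2 rose less (0.90 ± 0.20), and Fgfr3 was not called (-0.43 ± 0.25). Mlc1 and Slc4a10, named for the size of their change, read 0.391, 0.560 and 0.304 against 204, 120.5, 261 and 219, and 0.234, 0.259 and 0.238 against 77.01, 94.7, 53.8 and 60.2 CPM; MLC1 is an astrocyte membrane protein and SLC4A10 a bicarbonate transporter of neurons. Summed astrocyte levels were 313 to 321 CPM in progenitors and 3301 to 4030.0 at the axon stage.

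Oligodendrocyte genes were mixed. Olig1 rose from 3.05, 3.27 and 5.76 to 32.6, 84.0, 20.2 and 18.4 CPM, with axon-stage library 2 highest, but Sox10, which defines the lineage, fell from 0.860, 1.72 and 0.568 to 0.133, 0.110, 0.0268 and 0.268, and Mbp, of myelin, from 50.3, 56.3 and 55.5 to 38.9, 31.5, 32.9 and 32.6. Over the list 6 rose and 2 fell of 11 tested. Omg, a myelin-associated protein that neurons also make, had 0 counts in progenitors and read 23.1, 24.1, 15.4 and 19.4 CPM, at least 939.7-fold higher. Motile cilia genes rose (9 of 11, none lower, median 2.62). Foxj1, the master factor of motile cilia in ependymal cells, read 18.4, 13.1 and 5.74 against 152, 63.2, 170.2 and 137 CPM, and Fam216b, with the largest difference of the genes named, had 0 counts in progenitors and 47.9, 19.5, 70.7 and 55.9 CPM, at least 2221.0-fold higher. Axon-stage library 2 was the lowest in both. Of the choroid plexus list 3 of 7 were higher and 1 lower, while Ttr, its defining secreted protein, was not tested, with 0 to 14 counts in progenitors and 0, 3, 208 and 137 at the axon stage.

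Mesenchymal genes rose beside the neural ones (13 of 14 higher, none lower, median 3.86). Col1a1, the main collagen of fibroblasts, read 44.1, 49.8 and 29.5 CPM in progenitors and 643, 2719.9, 804 and 770.0 at the axon stage, and Dcn, a proteoglycan of connective tissue, 9.85, 15.9 and 8.73 against 211, 239.6, 223 and 208. Prelp, a connective tissue protein with one of the smallest p, read 0.417, 0.388 and 0.581 against 213, 145, 272 and 228. Col1a1 was highest in axon-stage library 2, and Dcn was even. Smooth muscle Acta2 read 30.6, 81.9 and 18.5 against 368, 81.7, 454 and 391, library 2 overlapping the progenitors, and 5 of 8 members of its list were higher (3 without axon-stage libraries 3 and 4). Of the 8 complement genes the 6 that were tested rose (median 4.07), of which C1ra and C4b share over 20% of their sequence with other genes and are uncertain. The other two, subunits of C1q, were too low to be tested and did not go that way: C1qb had 11, 10 and 16 counts against 3, 1, 0 and 1, and C1qc 17, 5 and 4 against 0 in all 4.

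Class I antigen presentation rose in 6 of 9, with B2m at 19.98, 24.3 and 33.6 against 73.6, 84.5, 109.7 and 101.7. Against progenitors of the other library block 3 of its genes were higher and 1 lower, and without axon-stage libraries 3 and 4 there were 4 higher. Of the 10 genes of microglia and blood only 2 were tested and both were lower: Cd68, a lysosomal protein of macrophages, read 5.47, 5.601 and 13.1 against 0.750, 0.551, 1.26 and 1.07 CPM, and Csf1r, a receptor of macrophages and microglia, 7.82, 15.1 and 23.9 against 3.32, 0.882, 4.36 and 2.71. Aif1 and Ptprc had 0 to 7 counts in any library, and Hbb-bt had none. Summed, the list read 13.9 to 37.3 CPM in progenitors and 1.54 to 5.83 at the axon stage. The part of these other cells in the neuronal comparisons was not tested.

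Most epithelial and trophoblast genes that were tested fell. Epithelial genes had 7 of 8 lower (median -3.63), with Cdh1, the epithelial cadherin, at 70.8, 131 and 247 against 6.34, 0.993, 8.27 and 8.19 CPM and Epcam at 29.3, 40.9 and 78.6 against 2.08, 0.846, 3.66 and 3.31. Trophoblast genes had 5 of 8 lower, with Hand1 at 18.8, 38.2 and 51.6 against 1.02, 0.110, 1.39 and 2.09 CPM; Tpbpa, which defines the lineage, read 12.1, 25.1 and 13.9 against 10.4, 0, 11.1 and 8.85 CPM and was not called. Of the germline genes 5 of 8 were lower and 1 higher. Stra8, which acts at the start of meiosis, fell from 12.6, 34.9 and 39.6 to 0.167, 0, 0.0803 and 0.0298 CPM, and Ddx25, an RNA helicase of male germ cells, rose by 1.72 ± 0.31. The list's summed level overlapped between the stages, at 56.7 to 115.8 CPM in progenitors and 53.9 to 82.5 at the axon stage. Endoderm genes had 1 of 6 lower and none called higher, but 5 of the 6 differences were above 0 (median 1.76). Their sum overlapped too, at 36.6 to 62.99 against 10.4 to 115.2 CPM. In Cdh1, Epcam, Hand1, Tpbpa and Stra8 library 4 was the lowest progenitor, and axon-stage library 2 the lowest of its stage.

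Axon-stage libraries 3 and 4 held transcripts that were far lower in 1 and 2. Lama1, a laminin of early basement membranes, read 62.5, 114.6 and 213 CPM in progenitors and 26.6, 20.4, 990.0 and 1007 at the axon stage, and Col4a1, the collagen of such membranes, 349.5, 599 and 779.6 against 647, 593, 3806 and 3854. Gata4, a factor of endoderm and heart, read 1.35, 4.65 and 7.69 against 0.600, 0.588, 51.1 and 51.4, and Sox17, which defines endoderm, 0.339, 1.25 and 1.82 against 0, 0, 13.3 and 15.3. Afp and Alb, later endoderm genes, were not tested at 2 to 86 and 0 to 14 counts a library. Aqp1, a water channel, read 0.156, 0.215 and 0.132 against 5.17, 3.27, 50.9 and 51.7 CPM. None of Lama1, Col4a1, Gata4 and Sox17 was called between stages (adjusted p from 0.0562 to 0.25), and the groups overlapped in each. Without libraries 1 and 2, 4 endoderm genes and 10 of 15 matrix genes were called higher, against none and 6 with all libraries. Conversely Zic1, a factor of dorsal neural tube and cerebellum, read 20.9, 10.9 and 26.8 against 145, 183, 19.6 and 20.2 CPM (2.23 ± 0.88, adjusted p = 0.0567), high in libraries 1 and 2 only. The labels do not say how these cultures differed.

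**Figure D4:**
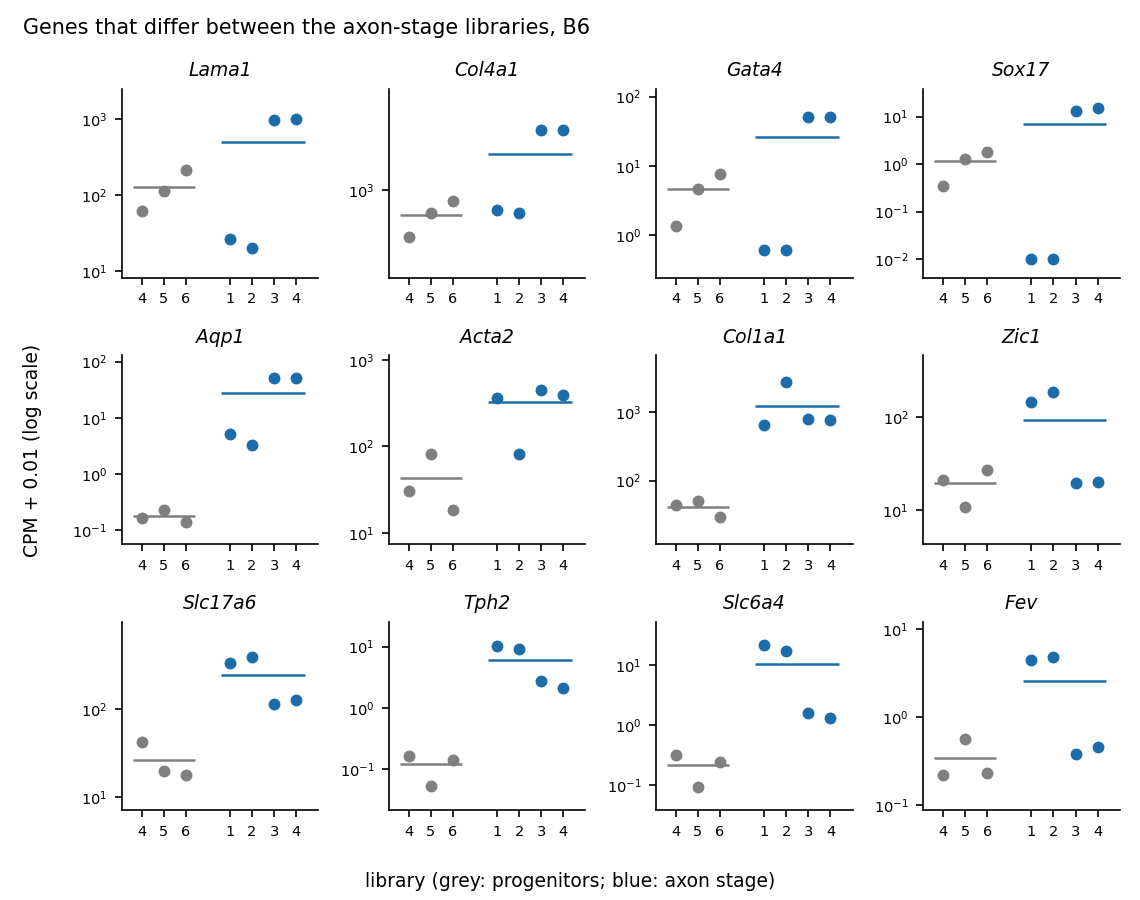
CPM of 12 genes in each B6 library on a log axis, with 0.01 added; grey points are progenitors, blue points the axon stage, and lines are group means. Lama1, Col4a1, Gata4, Sox17 and Aqp1 are high in axon-stage libraries 3 and 4, while Zic1, Tph2, Slc6a4 and Fev are high in 1 and 2.

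Other genes named for a small p, a large difference or a high level came from several cell types. Ndrg2, a cytoplasmic protein of astrocytes, read 8.91, 9.69 and 10.01 CPM in progenitors and 139.9, 171, 152 and 132 at the axon stage, and Kcnj16, a potassium channel of glia, 0.0782, 0 and 0.0132 against 22.9, 12.6, 40.5 and 31.7. Thy1, a surface protein of mature neurons, read 1.17, 1.68 and 1.004 against 80.0, 96.5, 82.2 and 93.5, and Lynx1, which damps nicotinic receptors, 2.97, 2.54 and 1.94 against 71.6, 66.0, 66.96 and 66.9. Adora1, the adenosine A1 receptor, read 4.43, 3.83 and 3.08 against 108.3, 110.4, 95.7 and 89.1. The stages lay apart in all 5, but these genes were named from the same values, so this is no separate support. Igfbp5, an insulin-like growth factor binding protein, and Nnat, an imprinted gene of the developing brain, were abundant and rose by 1.90 ± 0.35 and 1.80 ± 0.41.

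Downward, Wnt7b, a secreted ligand of neural development, read 74.7, 74.5 and 74.6 against 11.01, 9.38, 12.3 and 11.9 CPM. Igdcc3, an immunoglobulin-type surface protein, read 154, 165 and 214 against 7.77, 4.89, 5.46 and 4.92, and Pou2f1, a widely expressed transcription factor, 163, 135 and 133 against 34.1, 30.5, 31.7 and 32.02. The imprinted noncoding RNA H19 fell from 1006, 2139 and 2834 to 727, 1193, 629.9 and 619 CPM, a call that was lost without progenitor library 6 (adjusted p = 0.0676 by the edgeR quasi-likelihood test). The stages overlapped in H19 and lay apart in the other 3, which were also named from the same values. Zscan4f, Zfp978 and Zfp988 were also among the largest falls, but share over 20% of their sequence with other genes and are uncertain.

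The same stage difference was set beside that of WSB, a wild-derived strain, in the 3 control libraries a stage. The difference between the strains' stage differences was called for 455 of 17400 genes in the direction more positive in WSB (2.61%) and for 218 in the other (1.25%), in an edgeR quasi-likelihood fit of all 13 libraries, where levels are scaled anew. Mitosis had no called member of 20 (medians -2.79 in B6 and -3.06 in WSB), DNA replication none of 22 and the presynaptic list none of 18 (medians 2.36 and 1.94). A difference that was not called does not show that the strains act alike.

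Part of the pluripotency list had a more negative stage difference in B6. Of 15 members 5 differed in this direction and none in the other, with medians of -7.13 in B6 and -3.97 in WSB. Nanog and Pou5f1 read higher in B6 progenitors than in those of WSB. Nanog read 3.10, 6.45 and 5.29 CPM in WSB progenitors and 0.265, 0.968 and 0.875 at its axon stage, below the B6 progenitor values given before (5.06 ± 0.73, adjusted p = 0.00596). Esrrb, a nuclear receptor of stem cells, read 8.87, 19.98 and 13.7 against 21.7, 6.61 and 6.79 CPM in WSB (4.54 ± 0.72). Pou5f1 read 5.98, 9.46 and 10.2 CPM in WSB progenitors and 0 counts later, and its difference was not called (adjusted p = 0.451).

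Of the astrocyte list 2 of 13 genes rose further in WSB and none further in B6. Sparcl1 read 17.4, 18.2 and 13.4 CPM in WSB progenitors and 1868, 4527 and 3665 at the axon stage, above the B6 values given before (1.86 ± 0.36, adjusted p = 0.018). Slc1a3, the glutamate transporter of astrocytes, differed by 1.60 ± 0.28. Of the 11 oligodendrocyte genes tested in both fits 3 were more positive in WSB: Olig1 read 0.0360, 0.0547 and 0.158 against 66.8, 71.3 and 101 CPM there, Olig2 0.865, 1.01 and 0.947 against 24.7, 28.98 and 39.4, and Mbp differed by 0.88 ± 0.21. Gfap read 0, 0.164 and 0 against 96.5, 9374 and 6277 CPM in WSB, spread too widely to call (2.60 ± 2.98).

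The neuronal lists differed in how many differences were called. In WSB 1 of 20 pan-neuronal genes was more negative, none of 16 postsynaptic genes was called, and GABA and glycine receptors had 1 in each direction. Also more negative in WSB were 4 of 27 axon guidance genes and 2 of 16 glutamate receptors, against 1.25% of all genes. Of the 14 GABA neuron identity genes tested in both fits, 3 were more negative. None of these 3 lists had a more positive member among those genes. Other neuronal lists went the other way. The monoamine list had 2 of 13 genes more positive in WSB, and the cholinergic and motor list 2 of 8, against 2.61% of all genes. Neither of the 2 lists had a more negative gene. Of the genes more negative in WSB, 3 are given here, Gad1 and Grm7 picked after their values were seen. Eno2, the neuronal enolase, read 308, 318 and 176 CPM in WSB progenitors and 338, 213 and 274 at the axon stage, beside 32.8, 27.8 and 17.3 and then 221, 220.3, 165 and 189 in B6 (-2.90 ± 0.38, adjusted p = 0.00487). Gad1 read 53.1, 53.8 and 42.5 against 179, 189.7 and 202 in WSB (-1.58 ± 0.30), and Grm7 2.31, 4.92 and 1.97 against 87.98, 52.5 and 61.5 (-3.29 ± 0.70). Axon-stage levels of the 3 genes overlapped between strains. Of p53 targets 4 of 10 were more negative in WSB, among them Cdkn1a (-1.52 ± 0.23) and Bbc3 (-1.74 ± 0.21). Ccnd1, not called in B6, fell in WSB from 113, 109.8 and 133 to 25.8, 19.02 and 16.2 CPM, and its difference was -2.43 ± 0.37 (adjusted p = 0.00645). The counts rest on single libraries: without WSB axon-stage library 1, 942 genes were more positive and 548 more negative, and without WSB progenitor library 4 only 192 were called, 74 of them more negative. Each of the 13 libraries but B6 axon-stage library 2 moved a count by over 1.5 times when left out, to between 192 and 1490 genes in all and between 71 and 548 more negative ones, and up to 37 of the differences named by the rule or in the lists lost their call.

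**Figure D5:**
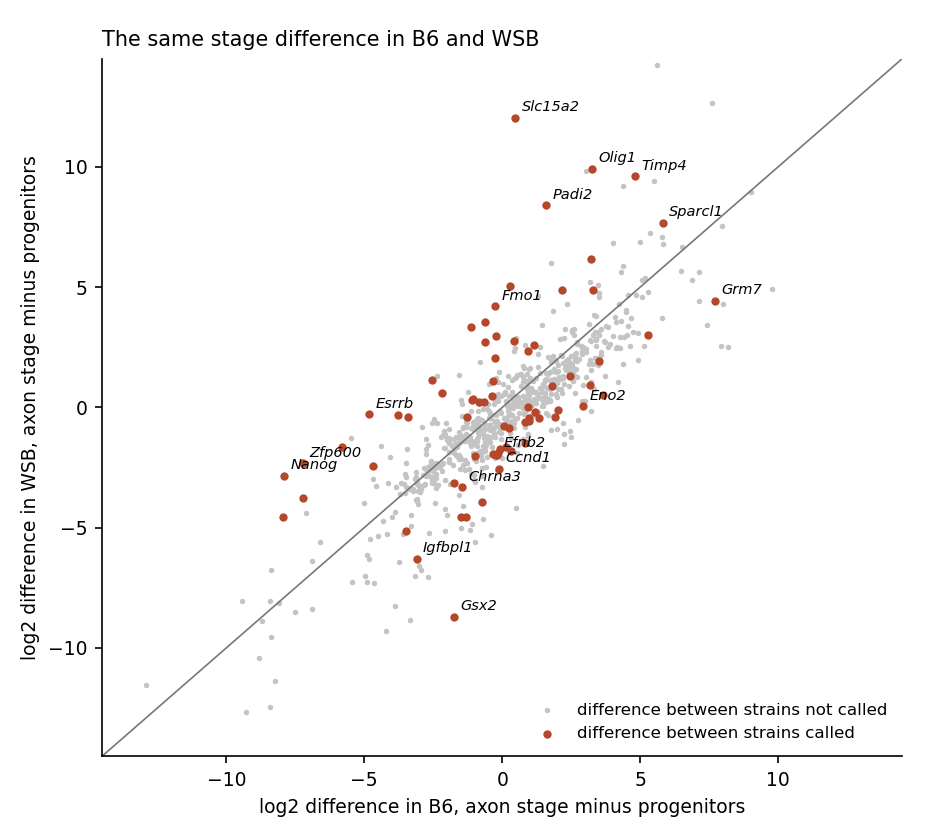
Log2 stage difference in B6 (horizontal) against WSB (vertical) for list members and named genes, 1 point per gene, with the line of equality; red points are genes whose difference between strains was called. Slc15a2, Padi2, Olig1 and Nanog lie above the line, and Igfbpl1, Eno2, Grm7 and Gsx2 below it; Gsx2 was too low to be tested in the B6 fit.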

How the data were processed

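Whole cultures were profiled by stranded mRNA sequencing (kapa kit). The authors deposited a table of expected counts per gene (38924 Ensembl genes), and 9.32% of its values are not whole numbers. The submitters' processing notes name Bowtie2, RSEM, featureCounts, limma and the build GRCm38, with no versions, roles or strand setting, so overlapping and antisense genes are uncertain. Reads carry no stated molecular identifiers.

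Runs of a library were summed and rounded. Genes were named from GENCODE M21 (37607 matched, and the 1317 others held 0.27% of counts). Genes passing filterByExpr were tested with edgeR 4.0.16 (TMM scaling, robust quasi-likelihood, R 4.3.3) on the 7 libraries, or 13 for the strain comparison, with Benjamini-Hochberg adjustment at 0.05 over all genes tested. The standard error is the absolute log2 difference over the square root of F. The script was tested on simulated data in which 200 genes changed and libraries varied less than here. That test therefore does not check the scaling or the error rate where most genes change. Alternatives were other scalings, DESeq2 1.42.0, other filters, first runs, more libraries, single libraries left out, the other block's progenitors, and a test against a 2-fold change.

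Members and gene lists were chosen with earlier results of these data known. Genes named were the 15 smallest p in each direction (difference of at least 1, mean log2 CPM at least 1), the 10 largest differences (mean log2 CPM at least 3), the 5 highest levels, up to 6 smallest p of each list with every exception, and the 10 smallest p in each direction between strains; the text gives a selection of them. Some other members, and the genes that differ within the axon stage, were picked after their values were seen.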

Additional observations from a re-analysis of the deposited data

Results flagged for a closer look

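In 7 of the genes given by library, 1 axon-stage library stood apart from the other 3, by Dixon's test of its gap to the nearest other on the log2 scale at the 95% level. Chance flags about 1 in 20 groups, and 39 of 758 genes scanned had such a library; 2 others, with 3 of the 4 libraries at 0, cannot be tested this way. Library 1 was the highest for Bdnf (37.3 CPM), Tac1 (120.6 CPM) and Lynx1 (71.6 CPM). Library 2 was the highest for Col1a1 (2719.9 CPM) and the lowest for Sox2 (49.3 CPM), Mfng (0.478 CPM) and Pou5f1 (0.0368 CPM).

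The stage difference itself differed between the strains, by the edgeR quasi-likelihood test of that difference, for 20 genes named by their small p. More positive in WSB were Slc15a2, a peptide transporter (11.58 ± 0.70), Padi2, a peptidylarginine deiminase (6.83 ± 0.60), Tuba4a, an alpha tubulin (2.71 ± 0.26), Timp4, a metalloproteinase inhibitor (4.79 ± 0.61), Fmo1, a monooxygenase (4.46 ± 0.57), Klf2, a pluripotency list member (2.99 ± 0.39), and Cpxm1, a carboxypeptidase-like protein (1.38 ± 0.16). Eif3j1 (1.42 ± 0.17), Zfp600 (4.92 ± 0.61) and Zfp985 (4.20 ± 0.53) belonged to the same group, and the first 2 share over 20% of their sequence with other genes. Slc15a2 read 0, 0 and 0.0789 CPM in WSB progenitors and 85.3, 131 and 111 at the WSB axon stage, so that its difference rests on very few progenitor counts.

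More negative in WSB were Efnb2, an ephrin ligand (-1.73 ± 0.17), Bbc3, a p53 target that promotes apoptosis (-1.74 ± 0.21), Synpo, an actin-binding protein of dendritic spines (-2.31 ± 0.29), Eno2 (-2.90 ± 0.38), Chrna3, a nicotinic receptor subunit (-1.85 ± 0.25), and Rec8, a meiotic cohesin (-2.13 ± 0.29). Ppp1r18 (-1.39 ± 0.20), Cnnm1 (-2.17 ± 0.31), Igfbp2 (-1.81 ± 0.26) and Igfbpl1 (-3.19 ± 0.47) completed the 10. All 20 were called in the comparison of 13 libraries.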

How the results depend on the processing

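Counts of genes called between stages were within 1.5 times of 4980 higher and 5491 lower under other scalings, DESeq2 (5618 and 5584), other filters, first runs, all libraries of the block, and single libraries left out (4128 to 4964 higher, 4757 to 5369 lower, 8885 to 10327 in all). Chosen after seeing the data, leaving out axon-stage libraries 1 and 2 gave 4683 and 4812, and leaving out 3 and 4 gave 4505 and 4926. A test against a 2-fold change called 4354 genes, 2488 higher and 1866 lower; it asks for a larger effect. Of 2166 list counts under the alternatives, 1961 were within 1.5 times of those given. Counts that were 0 in both fits, such as mitosis genes higher, were taken as the same and make up part of these. Among the called list members and named genes, only Lfng (-0.33) and Sst (-0.57) changed direction under these settings, against progenitors of the other library block. The strain comparison moved more. DESeq2 called 1877 genes (5.85% of those tested more positive in WSB and 4.94% more negative), and the fit of all libraries of the block 399 (1.45% and 0.648%). With library totals only, 1.63% were more positive, and with no filter on low counts, which tests more genes, 1.09% and 0.736%. With single libraries left out, 192 to 1490 genes were called, 0.660% to 5.29% more positive and 0.398% to 3.08% more negative. The cause was not tested. No paired analysis was possible because the replicate numbers of the 2 stages come from accession order. With 3 and 4 libraries a group, small differences may not be detectable.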
